A study of Mus musculus with 12 samples.

Results

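The 7 genes described here are chemokine receptors measured in macrophages: Ccr1, Ccr2, Ccr3, Ccr7, Cxcr4, Cx3cr1 and the atypical receptor Ccrl2. They were taken by name, each had a single row, and together they are 7 of the 23847 rows of each expression table. Messenger RNA was sequenced from wild-type mouse bone marrow-derived macrophages (BMDMs), macrophages grown from the bone marrow of mice aged 8 to 12 weeks by culture for 6 days in L929 cell supernatant as the source of M-CSF, a step that all 4 groups share. Control cells received nothing further, the IL-4 group received IL-4 at 20 ng/ml for 24 h, the LPS group received LPS at 100 ng/ml for 3 h, and the IL-4+LPS group received IL-4 for 24 h and then LPS for 3 h. IL-4 is a cytokine of alternative macrophage polarization, and LPS is a component of the bacterial outer membrane that activates Toll-like receptor signaling. Each group had 3 samples, which carry the numbers 1 to 3, and the comparisons ask how IL-4 exposure bears on the receptors before and after LPS.

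Chemokine receptors are G protein-coupled receptors of the cell surface that bind small secreted chemokines and steer the migration of leukocytes along their gradients. On binding, they couple to inhibitory G proteins, and are then phosphorylated by receptor kinases, bound by arrestins and internalized. In the monocyte and macrophage lineage, CXCR4 and its ligand CXCL12 hold cells in the bone marrow, CCR2 and its ligand CCL2 release monocytes into the blood and draw them to inflamed tissue, and CX3CR1 marks patrolling monocytes and several resident macrophages. Atypical receptors such as CCRL2 bind ligand without driving migration.

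Expression is given as FPKM, a count of fragments scaled to transcript length and to the mapped fragments of the sample, which can therefore be compared between genes. FPKM totals of the 12 samples ran from 457583 to 495025. The depth of a sample relative to control sample 1, read from the steps between low FPKM values, ran from 0.991 to 3.30, and the 4 samples numbered 1 lay between 0.991 and 1.03. Of the 8 macrophage markers listed, all 8 reached 1 FPKM, with Csf1r at 909 ± 22.4 FPKM in control (SD, n = 3). The summed macrophage markers ran from 19380 to 20750 FPKM in control, 7585 to 7799 after IL-4, 16820 to 17850 after LPS and 6854 to 7153 after both, and most of that sum was the lysozyme gene Lyz2. Granulocyte markers were present as well, with all 7 of those in the tables at or above 1 FPKM, while the summed markers of T and NK cells, of B cells and of stromal cells stayed at or under 3.50, 4.36 and 0.208 FPKM in every sample. In bulk RNA, fewer cells of a type and less RNA per cell cannot be told apart.

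The receptor genes lie in few places of the mm10 genome, and all 7 are protein-coding. Ccr1 (chr9:123962126-123968692, minus strand), Ccr3 (chr9:124021971-124031689, plus strand) and Ccr2 (chr9:124102183-124109140, plus strand) lie near each other on chromosome 9 and span 147.0 kb. Cx3cr1 (chr9:120048683-120068296, minus strand) and Ccrl2 (chr9:111054835-111057270, minus strand) are on the same chromosome at a distance. Ccr7 is on chromosome 11 (chr11:99144199-99155077, minus strand) and Cxcr4 on chromosome 1 (chr1:128588199-128592299, minus strand). Neighbors in the cluster did not change alike: after IL-4, Ccr1 rose while Ccr3 fell. Sharing of sequence with other genes, counted as 50-base words of the longest transcript that occur in another gene, was 2.27% for Ccr2 and 0.27% for Cx3cr1. No such word was shared by the other 5 members. One exon of Cx3cr1 overlaps the opposite-strand gene Gm33858 in GENCODE vM21, and the library kit does not mark strand, so reads of both genes cannot be told apart there.

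RefSeq promoter sequence (build GRCm38.p6) was matched by symbol for 6 of the 7 members. The 250 bases before the start of Cxcr4 (chr1:128592300-128592549, minus strand) and of Ccrl2 (chr9:111057519-111057768, minus strand, the outermost of its 3 starts) are shown because these genes had the largest fall and the largest rise after LPS, and those of Ccr3 (chr9:124021721-124021970, plus strand) because it held the single motif match among the members. All are written 5′ to 3′ along the gene, and capitals mark the match.
Cxcr4: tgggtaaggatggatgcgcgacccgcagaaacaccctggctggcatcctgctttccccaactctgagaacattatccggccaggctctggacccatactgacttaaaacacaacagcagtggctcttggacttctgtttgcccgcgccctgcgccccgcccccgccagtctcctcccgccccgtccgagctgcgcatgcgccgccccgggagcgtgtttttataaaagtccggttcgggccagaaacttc
Ccrl2: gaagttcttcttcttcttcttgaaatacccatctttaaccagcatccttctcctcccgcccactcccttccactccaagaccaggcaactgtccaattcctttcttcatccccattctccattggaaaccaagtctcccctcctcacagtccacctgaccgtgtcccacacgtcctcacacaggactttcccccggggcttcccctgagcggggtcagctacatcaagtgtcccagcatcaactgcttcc
Ccr3: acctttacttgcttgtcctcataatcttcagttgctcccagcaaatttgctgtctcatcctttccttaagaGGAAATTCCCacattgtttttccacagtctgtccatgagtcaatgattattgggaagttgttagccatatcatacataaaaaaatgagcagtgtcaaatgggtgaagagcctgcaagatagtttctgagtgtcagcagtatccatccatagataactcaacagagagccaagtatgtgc
The search covered both strands for an NF-kB pattern (GGG and TTCC 3 bases apart), a STAT6 pattern (TTC and GAA 4 bases apart) and the PU.1 pattern GAGGAAG, in windows from 250 bases before to 50 bases after each start. Of 32851 mouse promoters, 5.56% held the NF-kB pattern, 6.95% the STAT6 pattern and 13.63% the PU.1 pattern. Among the members, the match was GGAAATTCCC in Ccr3, at position -179 from the start and on the strand opposite to the gene. Neither the Ccrl2 windows nor the Cxcr4 window held the letters of these patterns. Other forms of these binding sites were not searched, so the absence of a match does not show that such sites are absent. It also says nothing about binding elsewhere.

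Of the 7 receptors, 6 passed the expression rule of at least 1 FPKM in at least 1 sample and were tested among 11191 rows with limma on log2(FPKM + 1), with Benjamini-Hochberg adjustment over all rows and a threshold of 0.05. Cx3cr1 stayed under 1 FPKM in every sample. After LPS alone, 2 of the 6 were higher (Ccrl2 and Ccr3), 3 were lower (Cxcr4, Ccr2 and Ccr1) and 1 was not called (Ccr7), against 16.9% of all rows higher and 57.7% lower. After IL-4 alone, Ccr1 was higher and Ccr3, Ccrl2 and Cxcr4 were lower, against 16% of all rows higher and 21% lower. LPS given after IL-4, compared with IL-4, raised Ccrl2 and lowered Ccr1, Ccr2 and Cxcr4, against 15% higher and 57.9% lower. In IL-4+LPS compared with LPS, Ccr1 was higher and Ccr3 was lower, against 15% of all rows higher and 15.8% lower. IL-4+LPS compared with control had 2 members higher and 3 lower, against 17.9% and 56.4%, and LPS compared with IL-4 had 2 higher and 2 lower, against 18.5% and 55.2%. Several of these comparisons share control, IL-4 or LPS samples.

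LPS moved the bulk of the transcriptome downward on this scale: the median log2 change of all rows was -0.44 for LPS against control and -0.41 for IL-4+LPS against IL-4. Under quantile normalization the LPS median was -0.12, and under median scaling it was -0.14. The calls of all rows then became 25.9% higher and 38.7% lower under quantile normalization, and 26.5% and 39.8% under median scaling. For the members, the LPS calls went from 2 higher and 3 lower to 3 and 2 under quantile normalization, and to 2 and 2 under median scaling. In IL-4+LPS against IL-4, 1 higher and 3 lower became 2 and 2 under quantile normalization (all rows 22% and 37.3%) and stayed 1 and 3 under median scaling (23.5% and 36.3%). IL-4+LPS against control became 2 and 2 under both (27.8% and 37.5%, then 29.5% and 39.8%), and LPS against IL-4 became 3 and 2 (26.6% and 39.9%) and 2 and 2 (27% and 39.1%). Relative to the median row, the log2 change after LPS was 4.69 for Ccrl2, 1.12 for Ccr3, 0.74 for Ccr7, -0.01 for Ccr1, -1.08 for Ccr2 and -4.25 for Cxcr4. LPS after IL-4 gave 5.14 for Ccrl2, 0.63 for Ccr3, 0.38 for Ccr7, -0.34 for Ccr1, -0.82 for Ccr2 and -3.51 for Cxcr4 on the same relative scale.

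**Figure D1:**
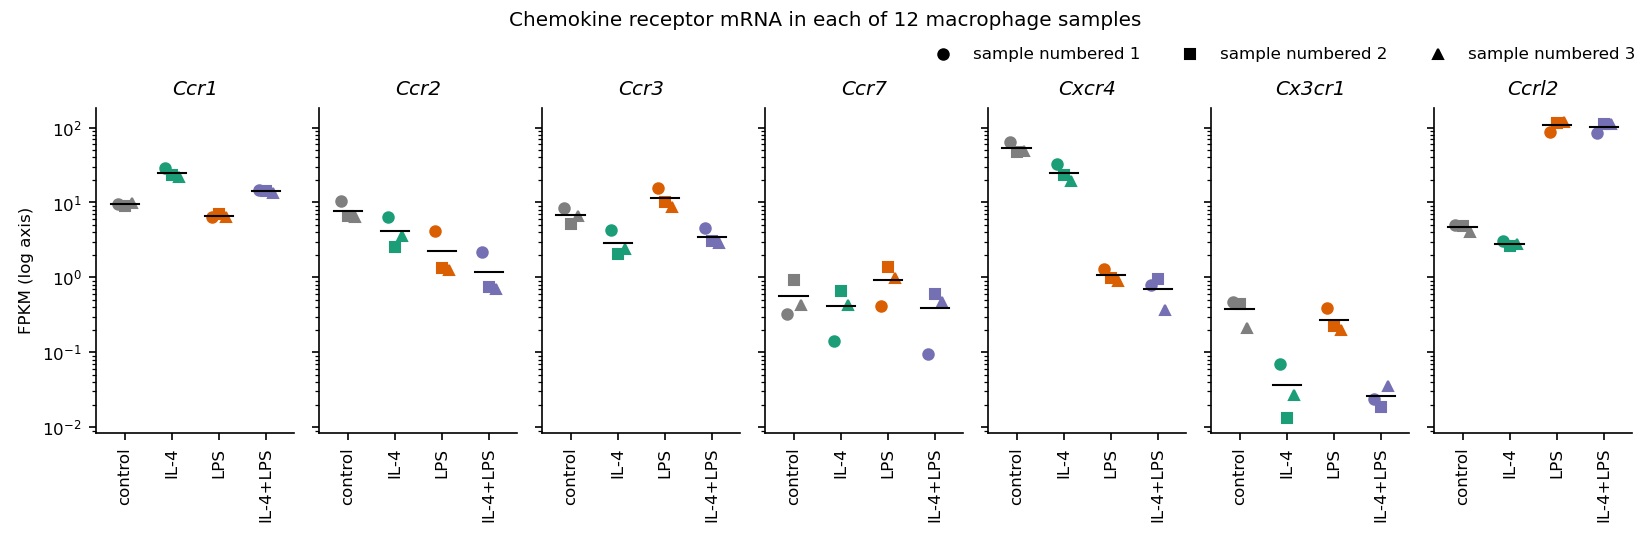
FPKM of the 7 receptors in the 12 samples on a log axis, with 1 panel per gene, 1 point per sample (shape gives the sample number) and a bar at the mean of 3 samples. Cxcr4 drops from 46.8 FPKM or more in control to 1.301 FPKM or less after LPS, Ccrl2 rises to 84.3 FPKM or more in both LPS groups, and Cx3cr1 is lowest in the 2 groups that received IL-4.

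**Figure D2:**
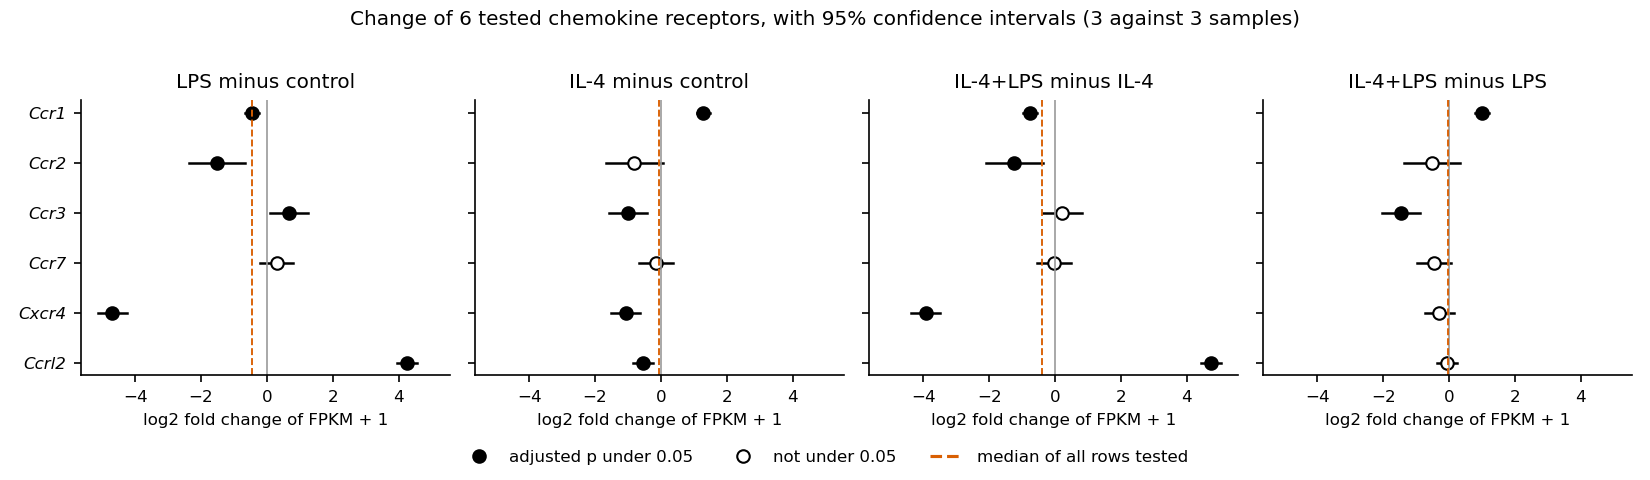
Log2 change of FPKM + 1 for the 6 tested receptors in 4 comparisons, with 95% confidence intervals. Filled points passed the adjusted threshold, and the dashed line is the median of all rows. Ccrl2 and Cxcr4 have the largest changes in both LPS comparisons, and only Ccr1 and Ccr3 are filled in IL-4+LPS minus LPS.

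Ccr1, a receptor for inflammatory CC chemokines such as CCL3 and CCL5, was the member that IL-4 raised. Its FPKM was 9.43, 9.004 and 9.81 in the control samples and 28.5, 22.9 and 22.2 in the IL-4 samples. LPS samples read 6.35, 7.04 and 6.41 FPKM, and IL-4+LPS samples read 14.8, 14.1 and 13.4. None of the 4 groups overlapped another, and the order of means was IL-4 at 24.5, IL-4+LPS at 14.1, control at 9.41 and LPS at 6.60 FPKM. IL-4 raised Ccr1 2.61-fold over control (log2 change 1.29, SE 0.09, adjusted p = 3.45e-06, n = 3 per group). In LPS-exposed cells, IL-4 pretreatment was accompanied by a 2.14-fold higher level (log2 change 0.99, SE 0.09, adjusted p = 2.25e-05), and same-numbered samples differed 2.33-, 1.998- and 2.09-fold. With the sample number as a block, fitted by limma over all 4 groups, this change had an adjusted p = 3.64e-05. LPS lowered the IL-4 level by 0.75 on the log2 scale (adjusted p = 3.63e-05) and the control level by 0.46 (-0.455, adjusted p = 0.00111). The fall from control was close to the median of all rows, and it was -0.04 (adjusted p = 0.727) under quantile normalization and -0.13 (adjusted p = 0.269) under median scaling. The level in IL-4+LPS stayed above control by a log2 change of 0.54 (adjusted p = 0.000352).

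Ccr2, the receptor for CCL2 that marks inflammatory monocytes, was highest in control and had its lowest mean in IL-4+LPS. Control samples held 10.4, 6.55 and 6.47 FPKM, and LPS samples held 4.12, 1.34 and 1.25. In the IL-4 samples it was at 6.45, 2.52 and 3.597 FPKM, and in the IL-4+LPS samples at 2.16, 0.737 and 0.697. Sample 1 was the highest of its group in all 4 groups. The LPS and control ranges did not overlap, and LPS gave a log2 change of -1.53 (SE 0.39, adjusted p = 0.00418), a 3.49-fold lower mean FPKM. After IL-4, LPS again lowered it (log2 change -1.23, adjusted p = 0.0142). That second call was lost under quantile normalization (-0.74, adjusted p = 0.11), in a Tukey test for the gene alone, and without IL-4 sample 1 (-0.94, adjusted p = 0.0598), IL-4+LPS sample 2 (-1.09, 0.0513) or IL-4+LPS sample 3 (-1.08, 0.0533).

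IL-4 alone gave a log2 change of Ccr2 of -0.81, which did not pass the threshold (95% interval -1.66 to 0.05, adjusted p = 0.13), although the control and IL-4 ranges did not overlap. In IL-4+LPS against LPS the change was -0.51 (95% interval -1.36 to 0.34, adjusted p = 0.356) without a replicate block. For this pair of groups, same-numbered samples deviated together, with correlations of their deviations of 0.386, 0.181 and 0.119. With the number as a block, fitted over all 4 groups, the same change had an adjusted p = 0.0107. The ratio of IL-4+LPS to LPS was 0.524, 0.551 and 0.557 in the samples numbered 1, 2 and 3. In the order of means, control at 7.80, IL-4 at 4.19, LPS at 2.24 and IL-4+LPS at 1.197 FPKM, no neighbors differed beyond their spread without the block.

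Ccr3, the receptor for eotaxins such as CCL11 and CCL24 and best known on eosinophils, moved in opposite directions after the single treatments. It was at 8.31, 5.15 and 6.64 FPKM in control, 4.28, 2.03 and 2.43 after IL-4, 15.6, 10.0 and 8.73 after LPS and 4.59, 3.06 and 2.84 after both. Every LPS sample was above every other sample, and both IL-4-treated groups lay below control. LPS gave a 1.71-fold higher mean (log2 change 0.68, SE 0.26, adjusted p = 0.0373). IL-4 alone lowered it by 1.00 on the log2 scale (-0.999, SE 0.26, adjusted p = 0.0133). LPS exceeded IL-4 3.94-fold (log2 change 1.675, SE 0.26, adjusted p = 0.000173). IL-4+LPS had a 3.28-fold lower mean than LPS (log2 change -1.45, SE 0.26, adjusted p = 0.00194), and the ratio was 0.294, 0.304 and 0.326 in the samples numbered 1, 2 and 3. With the number as a block, this change had an adjusted p = 1.29e-05. IL-4 and IL-4+LPS samples overlapped, with a log2 change of 0.22 (95% interval -0.36 to 0.81, adjusted p = 0.459), and Ccr3 was called higher there under quantile normalization (0.71, adjusted p = 0.0289).

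The calls of Ccr3 against control are less firm than those between the treated groups. Its rise after LPS lost its call without an expression filter (adjusted p = 0.0591), in a Tukey test for the gene alone, and without control sample 2 (log2 change 0.52, adjusted p = 0.132), control sample 3 (0.68, 0.0765), LPS sample 1 (0.45, 0.145) or LPS sample 2 (0.74, 0.0529). Its fall after IL-4 had an adjusted p = 0.0521 without control sample 1, 0.0546 without IL-4 sample 2 and 0.0507 without IL-4 sample 3. IL-4+LPS was below control by 0.78 on the log2 scale (-0.776, adjusted p = 0.0203), a call that was lost under quantile normalization (-0.21, adjusted p = 0.471), under median scaling (-0.46, adjusted p = 0.137) and in the Tukey test, and without control sample 1 (-0.63, 0.0776), IL-4+LPS sample 2 (-0.71, 0.0622) or IL-4+LPS sample 3 (-0.67, 0.0715). Eosinophil markers were low throughout: Epx was at most 0.237 FPKM and Il5ra at most 0.0241 in any sample, while the granule gene Prg2 had means of 7.89 FPKM in control, 3.43 after IL-4, 8.10 after LPS and 7.24 after both. The sum of the 4 eosinophil markers was 4.92 to 11.2 FPKM in control, 3.45 to 5.69 after IL-4, 6.27 to 10.2 after LPS and 3.27 to 10.7 after both. Sample 1 had the lowest sum in each group and at the same time the highest Ccr3, and the part of these markers in the result was not tested.

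Ccr7, which binds CCL19 and CCL21 and guides dendritic cells to lymph nodes, was low in these macrophages. It was at 0.328, 0.914 and 0.427 FPKM in control, 0.142, 0.660 and 0.431 after IL-4, 0.409, 1.39 and 0.984 after LPS and 0.0947, 0.593 and 0.476 after both. These levels rest on 7, 26 and 30 fragments in control, 3, 25 and 16 after IL-4, 9, 77 and 30 after LPS and 2, 16 and 20 after both. All pairs of groups overlapped, and sample 1 was the lowest of its group in all 4. Ccr7 reached 1 FPKM only in LPS sample 2, so it entered the test through the LPS group alone. Its comparisons with LPS are therefore not independent of the expression rule. Ccr7 was not tested when the rule asked for 1 FPKM in at least 3 samples. LPS gave a log2 change of 0.29 (95% interval -0.22 to 0.81, adjusted p = 0.27), which was called under quantile normalization (0.68, adjusted p = 0.0397). IL-4+LPS against LPS gave -0.46 (95% interval -0.97 to 0.05, adjusted p = 0.166). With the sample number as a block, fitted over all 4 groups, the same change had an adjusted p = 0.00429. LPS against IL-4 gave 0.43 (adjusted p = 0.113), which was called under quantile normalization (0.705, adjusted p = 0.0342), without LPS sample 1 (0.64, adjusted p = 0.0261) and with samples 2 and 3 only (0.497, adjusted p = 0.0292). Of the 6 dendritic cell markers, 2 reached 1 FPKM. Itgax was at 32.1 ± 9.53 FPKM in control, 317 ± 24.8 after IL-4, 25.1 ± 7.29 after LPS and 323 ± 35.5 after both, and Zbtb46 was at 0.0802 ± 0.0711, 0.369 ± 0.176, 0.518 ± 0.0389 and 2.42 ± 0.451 FPKM in the same order (SD, n = 3). The other 4 stayed under 1 FPKM in every sample, and the part of these markers in the Ccr7 values was not tested.

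Cxcr4, the receptor for CXCL12, was the most abundant of the 7 in untreated cells and fell furthest after LPS. Control samples held 63.7, 46.8 and 48.1 FPKM and IL-4 samples held 32.4, 23.1 and 19.3. After LPS it was at 1.301, 0.990 and 0.902 FPKM, and after IL-4 and LPS at 0.781, 0.937 and 0.366. Control and IL-4 did not overlap with each other or with the LPS-treated groups, which overlapped with each other. LPS lowered the mean FPKM 49.7-fold (log2 change -4.70, SE 0.20, adjusted p = 1.55e-08) and, after IL-4, 35.9-fold (log2 change -3.92, adjusted p = 5.82e-08). IL-4 alone lowered it 2.12-fold (log2 change -1.07, SE 0.20, adjusted p = 0.00187). IL-4+LPS against LPS gave -0.30 (-0.295, 95% interval -0.73 to 0.14, adjusted p = 0.295). With the number as a block, this change had an adjusted p = 0.0833. The remaining signal was 26, 50 and 25 fragments in LPS and 15, 23 and 14 after both. A log2 change of FPKM + 1 understates the change at such levels. The order of means, control at 52.9, IL-4 at 24.9, LPS at 1.06 and IL-4+LPS at 0.695 FPKM, was separated at each step but the last.

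Cx3cr1, the receptor for fractalkine (CX3CL1), was detected at trace levels that were lower in both groups that received IL-4. Control samples were at 0.468, 0.438 and 0.213 FPKM, and LPS samples at 0.386, 0.225 and 0.196. IL-4 samples were at 0.0707, 0.0132 and 0.0269 FPKM, and IL-4+LPS samples at 0.0236, 0.0185 and 0.0356. Every sample with IL-4 lay below every sample without it. The values correspond to 20, 25 and 30 fragments in control and 17, 25 and 12 in LPS, but 3, 1 and 2 after IL-4 and 1, 1 and 3 after both. Per unit of relative depth, control held 10.0 times the fragments of IL-4 (75 against 6 fragments, exact 95% interval 4.39 to 28.1), and LPS held 9.01 times those of IL-4+LPS (54 against 5, interval 3.63 to 28.9). Control and LPS differed by a ratio of 1.25 (interval 0.870 to 1.81). These intervals cover counting error only.

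The exact two-sided permutation test on log2(FPKM + 1) of Cx3cr1 gave p = 0.1 for IL-4 against control and p = 0.1 for IL-4+LPS against LPS, which is the smallest p that 3 against 3 samples can give, and p = 0.3 for LPS against control. Fitted by limma among 16585 rows without an expression filter, the log2 changes were -0.40 (adjusted p = 0.00307) for IL-4 against control, -0.30 (adjusted p = 0.0161) for IL-4+LPS against LPS and -0.11 (adjusted p = 0.233) for LPS against control.

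**Figure D3:**
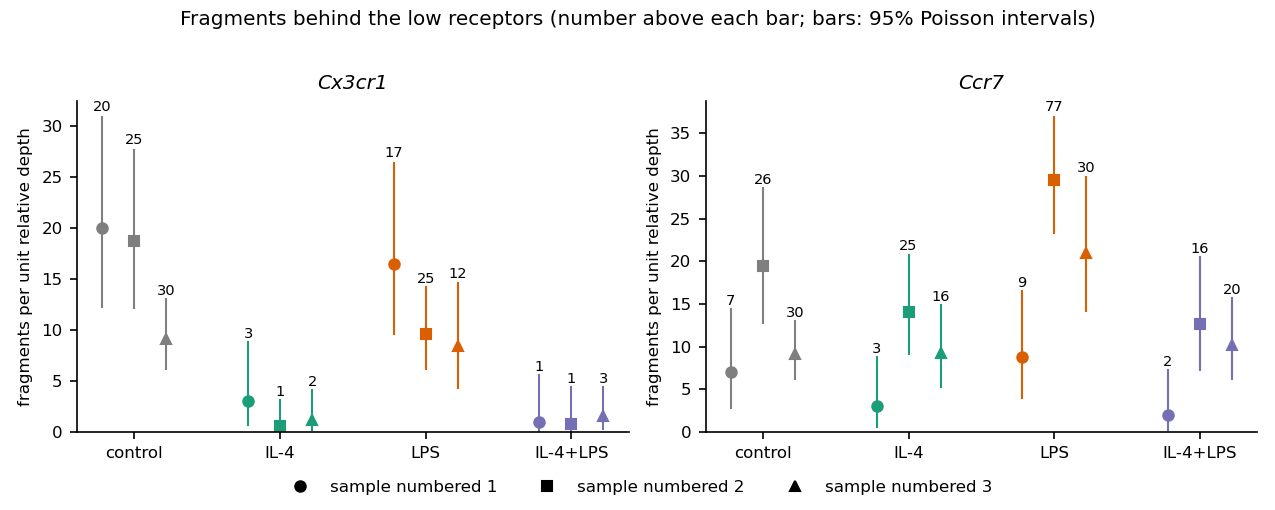
Fragments of Cx3cr1 and Ccr7 per unit of relative depth in each sample, with exact 95% Poisson intervals that cover counting error only and the fragment count above each bar. IL-4 and IL-4+LPS samples hold 1 to 3 fragments of Cx3cr1 against 12 to 30 in the other samples, whereas the groups overlap for Ccr7.

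Ccrl2, an atypical receptor that binds chemerin and presents it to neighboring cells without itself driving migration, was the member that LPS raised most. It was at 5.01, 4.80 and 4.09 FPKM in control and 3.03, 2.65 and 2.81 in IL-4. LPS samples reached 86.5, 116 and 117 FPKM, and IL-4+LPS samples reached 84.3, 111 and 110. The 2 LPS-treated groups overlapped and lay far above the others, with sample 1 the lowest in both. Mean FPKM rose 23.0-fold after LPS (log2 change 4.24, SE 0.14, adjusted p = 3.45e-09) and 36.0-fold when LPS followed IL-4 (log2 change 4.74, adjusted p = 2.17e-09). IL-4 alone lowered it 1.64-fold (log2 change -0.555, SE 0.14, adjusted p = 0.01). IL-4+LPS against LPS gave -0.06 with a 95% interval of -0.37 to 0.24 (adjusted p = 0.781), so a difference beyond that interval was not seen, and the test does not show that the levels are equal. With the number as a block, this change had an adjusted p = 0.745. In the order of means, LPS at 106.5, IL-4+LPS at 101.8, control at 4.63 and IL-4 at 2.83 FPKM, only the first pair of neighbors did not differ beyond their spread.

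The makeup of the receptor signal changed from Cxcr4 to Ccrl2. Summed over the 7 genes, FPKM was 82.4 ± 13.3 in control, 59.9 ± 13.1 after IL-4, 129 ± 12.4 after LPS and 122 ± 13.0 after both (SD, n = 3). Cxcr4 made up 64.1% ± 0.987 of the sum in control and 41.4% ± 2.96 after IL-4, where Ccr1 held 41.4% ± 2.97. After LPS, Cxcr4 held 0.841% ± 0.256 and Ccrl2 held 82.2% ± 5.88. In IL-4+LPS, Ccrl2 held 83.4% ± 3.85, and Ccr1 was next with 11.7% ± 1.87 against 5.14% ± 0.403 in LPS. Ccr3 held 9.13% ± 3.91 after LPS and 2.96% ± 1.17 after both.

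**Figure D4:**
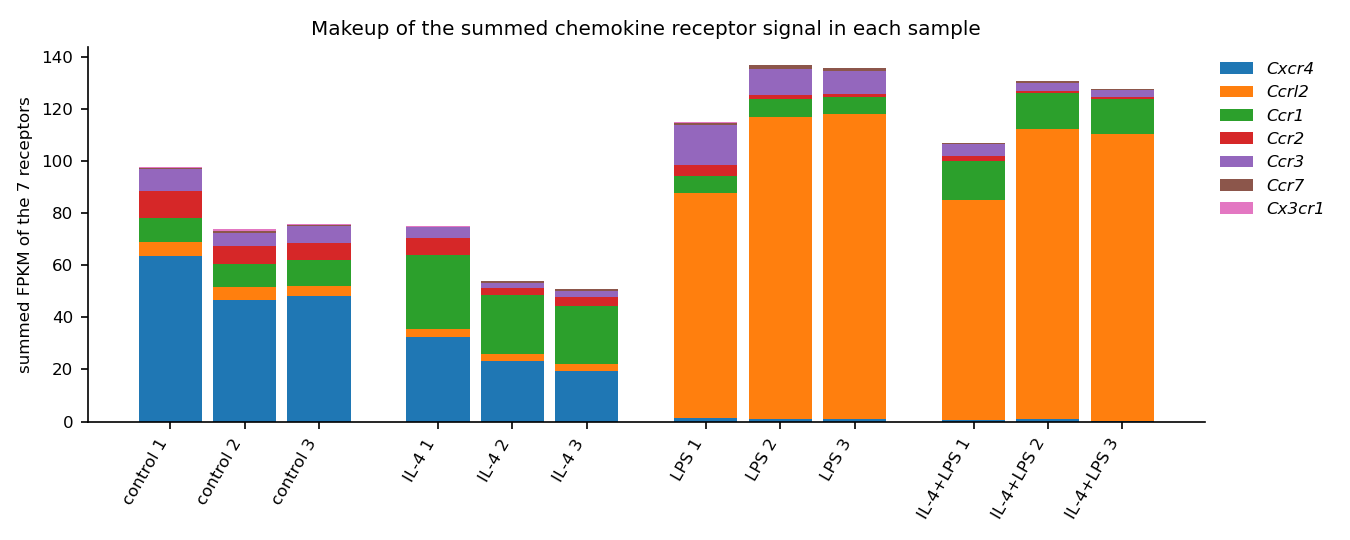
Summed FPKM of the 7 receptors in each of the 12 samples, stacked by gene from 0. Cxcr4 fills most of each control bar, Cxcr4 and Ccr1 share the IL-4 bars at 41.4% each, and Ccrl2 fills more than 75.4% of every LPS and IL-4+LPS bar.

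The interaction compares the effect of LPS on a receptor in both backgrounds, as the LPS change after IL-4 minus the LPS change without it. No member was called by limma, against 4.58% of all rows higher and 4.63% lower, and 3 of the 6 had an unadjusted p under 0.05. The largest interaction was that of Cxcr4, at 0.78 (95% interval 0.16 to 1.40, adjusted p = 0.115), followed by Ccrl2 at 0.49 (adjusted p = 0.152), and Ccr1 was at -0.30 (-0.297, adjusted p = 0.2). For Cxcr4 a positive value means that the fall after LPS was smaller in the IL-4-treated cells, which started from a lower level. On FPKM the Cxcr4 falls were 49.7-fold without IL-4 and 35.9-fold after it. They ended at means of 1.06 and 0.695 FPKM, where log2(FPKM + 1) understates a fall. The count of calls ranged from 0 to 2 over the other settings, and the share of all rows is not given for most of them. Ccr2, Ccr3 and Ccr7 had interactions of 0.29, -0.45 and -0.32, with adjusted p of 0.799, 0.524 and 0.62.

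Sample number moved with several members. Sample 1 had the highest Ccr2 and Ccr3 in all 4 groups and the lowest Ccr7 in all 4 groups. The granulocyte marker sum was also lowest in sample 1 of each group, at 375 FPKM against 969 and 687 in control, 235 against 448 and 304 after IL-4, 568 against 1167 and 946 after LPS and 469 against 941 and 658 after both, while Itgax was highest there. The part of these markers in the receptor differences was not tested. With samples 2 and 3 only, a restriction chosen after seeing the data, 4 members were called in IL-4+LPS against LPS in place of 2, Ccr2 at -0.42 (adjusted p = 0.0324) and Ccr7 at -0.51 (-0.505, adjusted p = 0.0463) being the additional ones. The share of all rows called under this restriction is not given, so the gain cannot be set against it. Ccr7 reached 1 FPKM only in LPS sample 2, which this restriction keeps, so its comparison with LPS is not independent of the expression rule. The same restriction also called Ccr2 in IL-4 against control (-0.90, adjusted p = 0.0014) and in LPS against IL-4 (-0.81, adjusted p = 0.000869).

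Of 20 other chemokine and related receptors, 3 reached 1 FPKM: Cmklr1, Cxcr3 and Gpr35. The rest stayed below, and Ccr8, Cxcr7, Darc, Ccbp2 and Pitpnm3 were listed at 0 in every sample. Cmklr1, a signaling receptor for chemerin, was at 15.0 ± 2.14 FPKM in IL-4 and 26.4 ± 1.98 after both (SD, n = 3, log2 change 0.78, SE 0.12, adjusted p = 0.000185). Cxcr3, which binds the interferon-induced CXCL9 and CXCL10, was at 2.39 ± 0.410 FPKM in control, 0.256 ± 0.0479 after IL-4 and 0.374 ± 0.186 after LPS, and the samples with both were listed at 0, 0 and 0.05999. Both single treatments lowered it, by log2 changes of -1.43 (adjusted p = 7.87e-06) for IL-4 and -1.31 (adjusted p = 2.74e-06) for LPS. Cxcr3 reached 1 FPKM only in the control group, so these 2 comparisons are not independent of the expression rule. In IL-4+LPS against LPS, 1 of the 3 was lower, against 15% of all rows higher and 15.8% lower. That was Cxcr3 at -0.42 (adjusted p = 0.0194), with all samples of both groups under 1 FPKM. The call was lost without LPS sample 1 (-0.32, adjusted p = 0.0628) or IL-4+LPS sample 2 (-0.41, adjusted p = 0.057).

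The ligands of the members were measured in the same cells. Of 20 listed, 17 had a single row and 12 were tested. LPS raised 10 of the 12 and lowered none, against 16.9% of all rows higher and 57.7% lower. The 4 largest changes were those of Ccl5 from 39.0 ± 24.7 to 4504 ± 720 FPKM (log2 change 6.98), Ccl4 from 38.5 ± 12.6 to 3214 ± 1292 (6.30), Ccl3 from 50.03 ± 1.66 to 2140 ± 621 (5.34), and Ccl12 from 0.113 ± 0.0992 to 42.6 ± 14.4 (5.25), with adjusted p from 1.54e-08 to 1.92e-06. Of their products, CCL3 and CCL5 bind CCR1, and Ccl12 encodes a ligand of CCR2. IL-4 alone raised 5 of the 12 and lowered none, against 16% and 21% of all rows, led by Ccl8 at 20.9 ± 5.33 FPKM (log2 change 3.95), Ccl7 at 30.0 ± 3.23 (3.75), Ccl24 at 10.8 ± 1.57 (2.86) and Ccl2 at 39.0 ± 1.07 (2.81). The corresponding receptors include CCR2 for CCL2 and CCL7 and CCR3 for CCL24.

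In IL-4+LPS against LPS, 5 of the 12 ligands were higher and 1 was lower, against 15% of all rows higher and 15.8% lower. With the sample number as a block 7 were higher and 1 lower, and the share of all rows is not given for that fit. Ccl24 was at 2.30, 5.35 and 5.99 FPKM in LPS and 75.7, 201 and 195 after both (log2 change 4.78, SE 0.37, adjusted p = 5.15e-06), whereas its receptor Ccr3 changed in the opposite direction. Ccl2 went from 51.1 ± 12.4 to 707.5 ± 376 FPKM (log2 change 3.595, adjusted p = 6.94e-05), Ccl7 from 21.7 ± 2.64 to 268 ± 129 (3.425, 2.61e-05) and Ccl8 from 8.06 ± 1.97 to 66.2 ± 9.56 (2.90, 1.58e-05). Ccl2 and Ccl7 thus had their highest means in the group where their receptor Ccr2 had its lowest. Cx3cl1, the ligand of CX3CR1, was the 1 that was lower, at 3.34, 1.92 and 2.15 FPKM in LPS and 0.628, 0.737 and 0.803 after both (log2 change -0.99, SE 0.15, adjusted p = 0.000542). Cx3cl1 reached 1 FPKM only in the LPS group, so this comparison is not independent of the expression rule. Cxcl12, the ligand of CXCR4, stayed at or under 0.297 FPKM, and Ccl11 at or under 0.151 FPKM. Rarres2, which encodes chemerin, was listed at or near 0 in every sample.

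**Figure D5:**
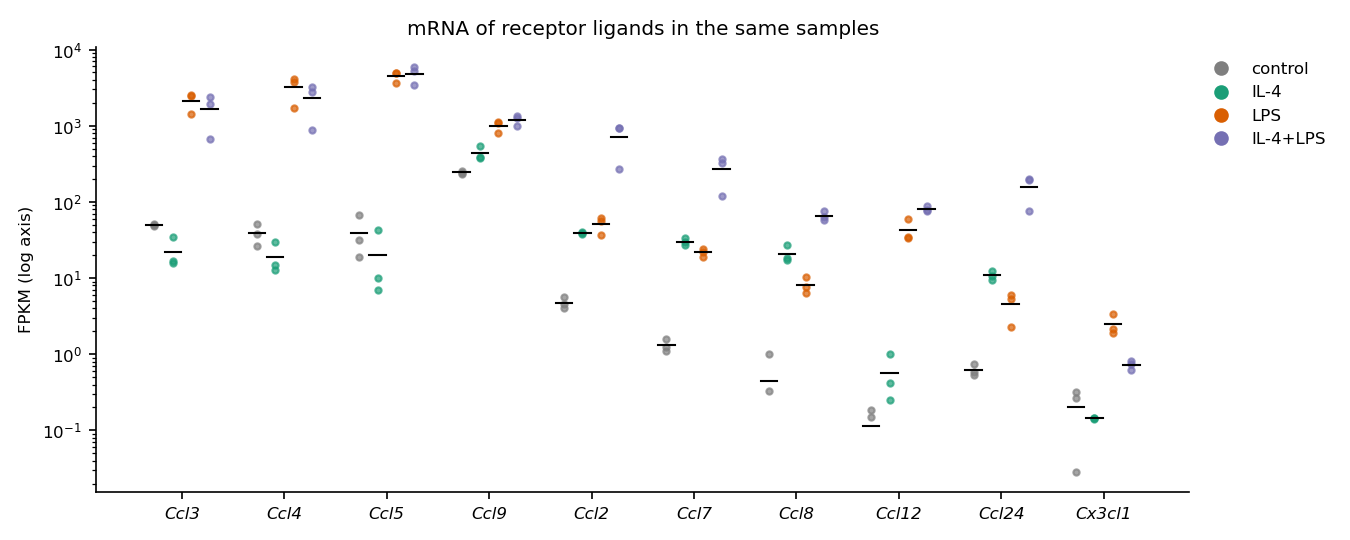
FPKM of 10 ligand genes in the 12 samples on a log axis, with 1 point per sample colored by group and a bar at the mean of 3 samples; control sample 1 of Ccl8 and of Ccl12 is listed at 0 and cannot be drawn. Ccl2, Ccl7, Ccl8 and Ccl24 are highest in IL-4+LPS, and Cx3cl1 is highest in LPS.

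Among genes that carry or end the receptor signal, all 23 listed were tested. LPS raised 6 and lowered 13, against 16.9% of all rows higher and 57.7% lower. On the deposited scale the share lowered was thus near that of all rows, with a median log2 change of -0.52 against -0.44 over all rows. Under quantile normalization 7 of the 23 were higher and 12 lower, against 25.9% and 38.7% of all rows. Under median scaling 7 were higher and 10 lower, against 26.5% and 39.8% of all rows. Rgs2, a regulator that speeds the switch-off of G proteins, fell from 59.98 ± 3.26 to 4.14 ± 2.86 FPKM (log2 change -3.70, adjusted p = 8.07e-06), and the arrestin gene Arrb1 fell from 48.8 ± 1.71 to 9.09 ± 3.84 (-2.37, 8.14e-06). Pik3r5, the regulatory subunit of PI3K gamma, rose from 56.2 ± 7.21 to 307 ± 45.3 FPKM (2.42, 2.53e-07), and Rgs16 rose from 0.789 ± 0.0354 to 6.59 ± 2.09 (2.05, 1.32e-05). After IL-4, 4 were higher and 11 lower, against 16% and 21% of all rows, with a median of -0.43 against -0.05 over all rows. The largest changes were falls of Arrb2 from 127 ± 2.75 to 43.8 ± 1.59 FPKM (-1.51, adjusted p = 0.00396), the G protein subunit Gng2 from 54.8 ± 5.69 to 22.9 ± 2.69 (-1.225, 5.42e-05), the PI3K catalytic subunit Pik3cg from 15.3 ± 0.564 to 6.38 ± 0.110 (-1.14, 0.00274), and Rgs10 from 301 ± 14.5 to 178 ± 4.29 (-0.75, 5.85e-05).

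In IL-4+LPS against LPS, 4 of the 23 signalling genes were higher and 12 lower, against 15% of all rows higher and 15.8% lower, with a median of -0.37 against -0.03 over all rows. With the sample number as a block, 4 were higher and 14 lower, and the share of all rows is not given for that fit. Rgs1 was higher, at 91.7 ± 58.7 against 28.7 ± 20.2 FPKM (log2 change 1.67, adjusted p = 0.031), and so was Rgs2, at 13.1 ± 7.67 against 4.14 ± 2.86 (1.46, 0.015). Both calls were lost without LPS sample 2 (1.37, adjusted p = 0.108, and 1.22, adjusted p = 0.0598) or LPS sample 3 (1.45, 0.104, and 1.28, 0.0591), and that of Rgs1 also without IL-4+LPS sample 1 (1.19, 0.0914) or without an expression filter (adjusted p = 0.0544), and in a Tukey test for the gene alone. When only the groups compared were fitted, the calls of Rgs1 (adjusted p = 0.097), Rgs2 (0.0905) and Pik3cg (0.0529) were lost. Rac2, a GTPase of leukocyte migration, was lower at 72.3 ± 10.1 against 160.5 ± 5.89 FPKM (-1.15, adjusted p = 1.38e-05), and Pik3cg at 5.32 ± 1.74 against 12.2 ± 4.50 (-1.05, 0.00497).

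The genes whose levels followed each member most closely were ranked by Pearson's r of log2(FPKM + 1) over the 12 samples, as a description. The samples form 4 treatment groups, so the points are not independent of each other. Ccr1 was followed by Irf4 (r = 0.986), a transcription factor of alternative polarization, and Bhlhe40 (0.986), with Irf4 at 1.36 ± 0.185 FPKM in control, 19.9 ± 0.699 after IL-4, 0.129 ± 0.105 after LPS and 3.75 ± 0.203 after both. Ccrl2 was followed by Helz2 (0.999) and Mtmr14 (0.999), with Helz2 at 3.70 ± 0.404, 2.11 ± 0.163, 48.7 ± 8.35 and 48.5 ± 6.80 FPKM in the same order of groups. Cxcr4 was followed by Zfp512 (0.996) and Pfkfb2 (0.995), Ccr2 by 1700049G17Rik (0.993) and Fcho2 (0.990), Ccr3 by Nab1 (0.974) and Mcl1 (0.969), and Ccr7 by Asb6 (0.9397) and Pom121 (0.917). Ranking by Spearman's rho gave other genes for all 6 members, with 0 of the 2 shared in each case.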

How the data were processed

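Messenger RNA of 12 mouse BMDM samples was poly-A selected and sequenced with an unstranded TruSeq kit, and per the submitters' processing notes the tools were TopHat2 2.0.7 and Cufflinks 2.0.2 with the mm10 build; the annotation was not given in the sources used here. The deposited values are FPKM, normalized by the authors to transcript length and mapped fragments, in 1 table per sample. From these, log2(FPKM + 1) was computed for the 11191 of 23847 rows with at least 1 FPKM in at least 1 sample, and group means over all 12 samples were compared with limma 3.58.1 in R 4.3.3 (moderated variance with an intensity trend, Benjamini-Hochberg adjustment within a comparison, threshold 0.05). The method was checked on simulated data.

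Relative depth and fragment numbers were recovered from whole multiples of the smallest FPKM step, with a tolerance of 0.03, and exact intervals cover counting error only. Groups came from the sample labels. The study describes these RNA-seq samples as 3 individual animals from 2 independent experiments. The labels tie no sample number to an animal or an experiment, so the experiments could not be entered in the fit. The LPS dose is that of the labels, in ng/ml, whereas the study's methods give the same figure in nM. Deviations from group means correlated above 0.1 in all 3 same-numbered pairs for LPS and IL-4+LPS, and in 11 of 18 pairs over all groups. For that reason the blocked fit is given beside that comparison for each tested member, and as counts for the ligands and signalling genes. Elsewhere it is given only among the alternatives. The block was fitted over all 4 groups, whose same-numbered correlations ran from 0.002 to 0.386. The choice of that comparison was made from these same data. All members were described, and of each other list the tested receptors or the 4 called ligands and signalling genes with the largest changes were named, as were the 2 genes most similar to each member. One listed receptor is not reported here. The members and lists were chosen with earlier results of these data known. Alternatives were another pseudocount, filter, normalization, variance model or test, a replicate block and leaving out each sample; a fit without the samples numbered 1 was chosen later, once the data had been seen.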

Additional observations from a re-analysis of the deposited data

Results flagged for a closer look

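The difference between the LPS change after IL-4 and the LPS change without IL-4, tested as an interaction by limma with Benjamini-Hochberg adjustment, passed the threshold for 4 genes of the receptor and ligand lists, and for no member. Of 3 other receptors tested, 1 was higher and 1 lower, and of 12 ligands tested, 1 was higher and 1 lower. Over all rows, 4.58% were higher and 4.63% lower. For Cxcr3 the interaction was 1.006 on the log2 scale (adjusted p = 0.00387). On FPKM, LPS lowered the Cxcr3 mean 6.40-fold without IL-4 and 12.8-fold after it. The positive value therefore does not mean a smaller fold fall, because log2(FPKM + 1) understates changes under 1 FPKM. The call was lost with a pseudocount of 0.1 (0.86, adjusted p = 0.345) and under quantile normalization (0.56, adjusted p = 0.062). For Gpr35 the interaction was -0.74 (-0.737, adjusted p = 0.00852), with means of 0.419 FPKM in control, 1.22 after IL-4, 0.195 after LPS and 0.119 after both. For Ccl24 it was 1.92 (1.918, adjusted p = 0.0444), which was lost with a pseudocount of 0.1 (1.14, adjusted p = 0.284), without an expression filter (adjusted p = 0.0666) and under quantile normalization (1.53, adjusted p = 0.0698). It was also lost in 11 of the 12 fits that left out 1 sample, all but the one without IL-4+LPS sample 1, with values from 1.58 to 2.12 and adjusted p from 0.0548 to 0.107 in the 11, whereas the other 3 genes kept direction and call in all 12. For Cx3cl1 the interaction was -0.93 (-0.925, adjusted p = 0.02), which was lost with a pseudocount of 0.1 (-1.47, adjusted p = 0.163). Cxcr3 reached 1 FPKM only in the control group, Gpr35 only in the IL-4 group and Cx3cl1 only in the LPS group. These 3 genes entered the test through the group where they were highest. Their interactions are therefore not independent of the expression rule.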

How the results depend on the processing

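Of 401 values of the members under other settings, 371 kept direction and call, 9 lost the call, 18 gained one and 3 reversed; of 504 values with 1 sample left out, these counts were 481, 13, 3 and 7. Of 1039 values of the named pathway genes, 978 kept both, 50 lost the call and 11 gained one. In IL-4+LPS against LPS, 4 members were called with a replicate block and 4 with samples 2 and 3 only, in place of 2. The share of all rows called under these 2 settings is not given, so the gain cannot be set against it. For the interaction, no member was called in the main fit. Under quantile normalization 1 was called (Ccr1 at -0.52, adjusted p = 0.0453), against 5% of all rows higher and 5.78% lower. The replicate block called 1 (Cxcr4 at 0.78, adjusted p = 0.0166) and samples 2 and 3 only called 2. Fits with 1 sample left out called 0 to 1 (1 without IL-4 sample 1, Cxcr4, adjusted p = 0.0397). In the other comparisons the replicate block added Ccr7 for LPS against control (adjusted p = 0.0169), Ccr2 for IL-4 against control (0.000974), and Ccr2 (0.000652) and Ccr7 (0.00226) for LPS against IL-4. The share of all rows is not given for the block, samples 2 and 3 only or the left-out fits, so these calls cannot be set against it. Ccr7 entered the test only through LPS sample 2, so its comparisons with LPS are not independent of the expression rule. In every comparison the samples share only a number, and 9 of 12 samples correlated best with their own number. Reversed values were those of Ccr7 in IL-4+LPS against IL-4 (0.23 under quantile normalization, 0.078 under median scaling) and against control (0.21 under quantile normalization). With 1 sample left out, Ccr7 ran from -0.27 (-0.265) to 0.019 in IL-4 against control and from -0.17 to 0.14 in IL-4+LPS against IL-4, Ccrl2 from -0.20 to 0.066 in IL-4+LPS against LPS, and Cx3cr1 from -0.032 to 0.008 in IL-4+LPS against IL-4. Without LPS sample 1, Ccr2 (-1.11, adjusted p = 0.0178) was called in LPS against IL-4. The cause of these changes was not tested. The fit of only the groups compared and the Tukey test were not run for the interaction. Depth limits Cx3cr1 and Ccr7, which rest on 1 to 30 and 2 to 77 fragments per sample.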
